A study of Homo sapiens with 8 samples.

Results

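The MYC network and ID factors are described here by 10 genes chosen by symbol, of 58440 gene identifiers in the deposited count table: MYC, MYCN, MAX, MXD4, MXI1, MNT, ID1, ID2, ID3 and ID4. Polyadenylated RNA was sequenced with a stranded protocol in HEK293 cells, a human embryonic kidney cell line, in 4 groups of 2 libraries: cells stably overexpressing HTR1E with serotonin, the same cells with no ligand, control HEK293 cells with serotonin, and control cells with no ligand. HTR1E encodes a serotonin receptor that couples to inhibitory G proteins. All cells were starved of serum for 3 h, and the treated groups then received 1 µM serotonin for 1 h; the protocol text is the same for every library, so the absence of ligand rests on the titles and treatment labels. The labels do not say whether the HTR1E line is 1 clone, what the control cells carried, or whether the 2 libraries of a group came from separate cultures, so p-values measure the spread between these libraries, which may be technical.

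The count columns are named for the treatment, with a letter A or B and, in 1 library of each pair, a further R. The names do not state the cell line. The 4 columns with the highest HTR1E counts after scaling by library size (CPM) all carry the letter A and were taken as the HTR1E line, and the 4 with the letter B as control cells. Total HTR1E counts ran between 1353 and 1836 in the A libraries and between 0 and 3 in the B libraries. Every statement on the cell lines rests on those counts and the shared letter, and HTR1E itself is therefore not a finding. Comparisons of serotonin with no ligand within a letter need only the names.

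MYC and MYCN are transcription factors that bind DNA as partners of MAX, at a sequence called the E-box, and activate genes of growth, ribosome production and the cell cycle. MXD4, MXI1 and MNT also pair with MAX and repress transcription from such sites. ID1, ID2, ID3 and ID4 lack a DNA-binding region. They hold E proteins away from DNA and are well known as targets of bone morphogenetic protein (BMP) signalling.

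Total counts per library ranged from 2604885 to 9072278. The B libraries named for no ligand and without the R (2604885 counts, 54.4% of them mitochondrial) and for serotonin with the R (36.3% mitochondrial) stood apart. The mitochondrial share was between 17.9% and 24.6% in the other libraries. The first of these 2 control libraries correlated at 0.894 with its group mate in log2 CPM, against 0.985 between the HTR1E libraries with no ligand. Both belong to the control line, so library quality and line are partly entangled. The main differences of MYC, ID1 and ID2 that involve these libraries are also given without both of them. That fit leaves a single control library per treatment, so its p-values take their spread from the HTR1E libraries alone. The HEK293 marker list (7 genes) summed to between 435 and 548 CPM in the HTR1E line and between 380 and 458 CPM in control cells. The list for other cell types (6 genes) summed to between 27.6 and 33.3 CPM in the HTR1E line and between 12.9 and 44.9 CPM in control cells, with the leukocyte marker PTPRC at 0 in every library and nearly all of the sum from COL1A1, a fibroblast collagen.

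The promoters of MXD4, MNT and ID1 are shown because the first 2 hold the E-box of the MYC-MAX type, CACGTG, and because ID1 was, after MYC, the member with the widest range between libraries. They were chosen after values and matches were seen. RefSeq promoter entries, running from 250 bases before to 50 bases after each start on build GRCh38.p14, matched 9 of the 10 members. The search covered both strands. It took in CACGTG (held by 7.26% of all 35116 promoters), the general E-box CANNTG that contains it (68.7%), the cAMP response element TGACGTCA (1.85%) and its core TGACG (24.6%), the SMAD element GTCTG (45.3%), the EGR site GCGTGGGCG (0.795%) and the GC box GGGCGG (45.0%). Capitals mark CACGTG in the MXD4 promoter (chr4:2262060-2262359, minus strand) and the MNT promoter (chr17:2401011-2401310, minus strand), and GGGCGG on the opposite strand in the ID1 promoter (chr20:31605039-31605338, plus strand). The 3 promoters, read 5′ to 3′, are as follows.
MXD4: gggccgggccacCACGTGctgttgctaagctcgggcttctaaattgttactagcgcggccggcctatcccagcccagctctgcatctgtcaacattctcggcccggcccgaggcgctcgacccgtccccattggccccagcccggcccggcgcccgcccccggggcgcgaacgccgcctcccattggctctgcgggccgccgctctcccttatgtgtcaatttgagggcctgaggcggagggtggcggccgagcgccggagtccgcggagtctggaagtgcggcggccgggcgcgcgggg
MNT: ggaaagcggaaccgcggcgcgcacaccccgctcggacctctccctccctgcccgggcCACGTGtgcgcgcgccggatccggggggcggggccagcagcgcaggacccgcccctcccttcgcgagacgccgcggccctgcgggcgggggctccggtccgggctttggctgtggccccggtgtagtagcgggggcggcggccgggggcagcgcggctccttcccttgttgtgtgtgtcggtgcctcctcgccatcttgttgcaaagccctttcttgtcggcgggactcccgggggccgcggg
ID1: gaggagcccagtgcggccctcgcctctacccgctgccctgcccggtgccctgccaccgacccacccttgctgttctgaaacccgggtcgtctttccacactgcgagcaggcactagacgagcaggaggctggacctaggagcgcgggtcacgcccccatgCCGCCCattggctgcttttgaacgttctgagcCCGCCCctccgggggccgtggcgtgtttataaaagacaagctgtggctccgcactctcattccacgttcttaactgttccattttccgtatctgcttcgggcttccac

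The match began 238 bases before the start of MXD4 and 193 bases before that of MNT. The 2 matches in ID1 began 90 and 58 bases before its start, and the ID1 window held none of the other motifs searched. A match is a description of letters and says nothing of binding.

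Levels per kilobase of transcript (CPM per kb, median of 8 libraries) were highest for ID3, at 61.4, followed by ID4 at 46.9, ID2 at 36.9 and ID1 at 22.0. Neighbours among these 4 overlapped in their ranges over libraries. MXD4 followed at 15.9 CPM per kb, and its lowest library, 9.87, lay above the highest of MAX, 8.65. MAX had a median of 7.20, MNT of 4.92 and MXI1 of 3.98 CPM per kb, again with overlapping neighbours. MYCN was lowest at 0.737, with a highest library of 0.885, below the lowest of MXI1, 3.37. MYC had no single place in this order. Its group means were 3.25 (serotonin) and 3.15 (no ligand) CPM per kb in HTR1E cells, below MXI1 at 3.50 and 3.55. In control cells they were 8.51 (serotonin) and 16.3 (no ligand), above MAX at 6.77 and 8.42. MYC and ID1 varied most, with the highest library 7.60-fold above the lowest for MYC and 6.98-fold for ID1. The fold was 1.39 for MAX, the common partner. In CPM, MAX ran between 27.5 and 38.3, MXD4 between 69.7 and 153, MNT between 35.7 and 69.7, ID3 between 54.7 and 133 and ID4 between 70.3 and 124. The lowest values of ID1, MXD4, ID3 and ID4 were all in the control library of 54.4% mitochondrial counts. Without that library ID1 ran between 17.3 and 44.2 CPM, a fold of 2.56, and MYC between 7.35 and 42.2 CPM, a fold of 5.73.

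**Figure D1:**
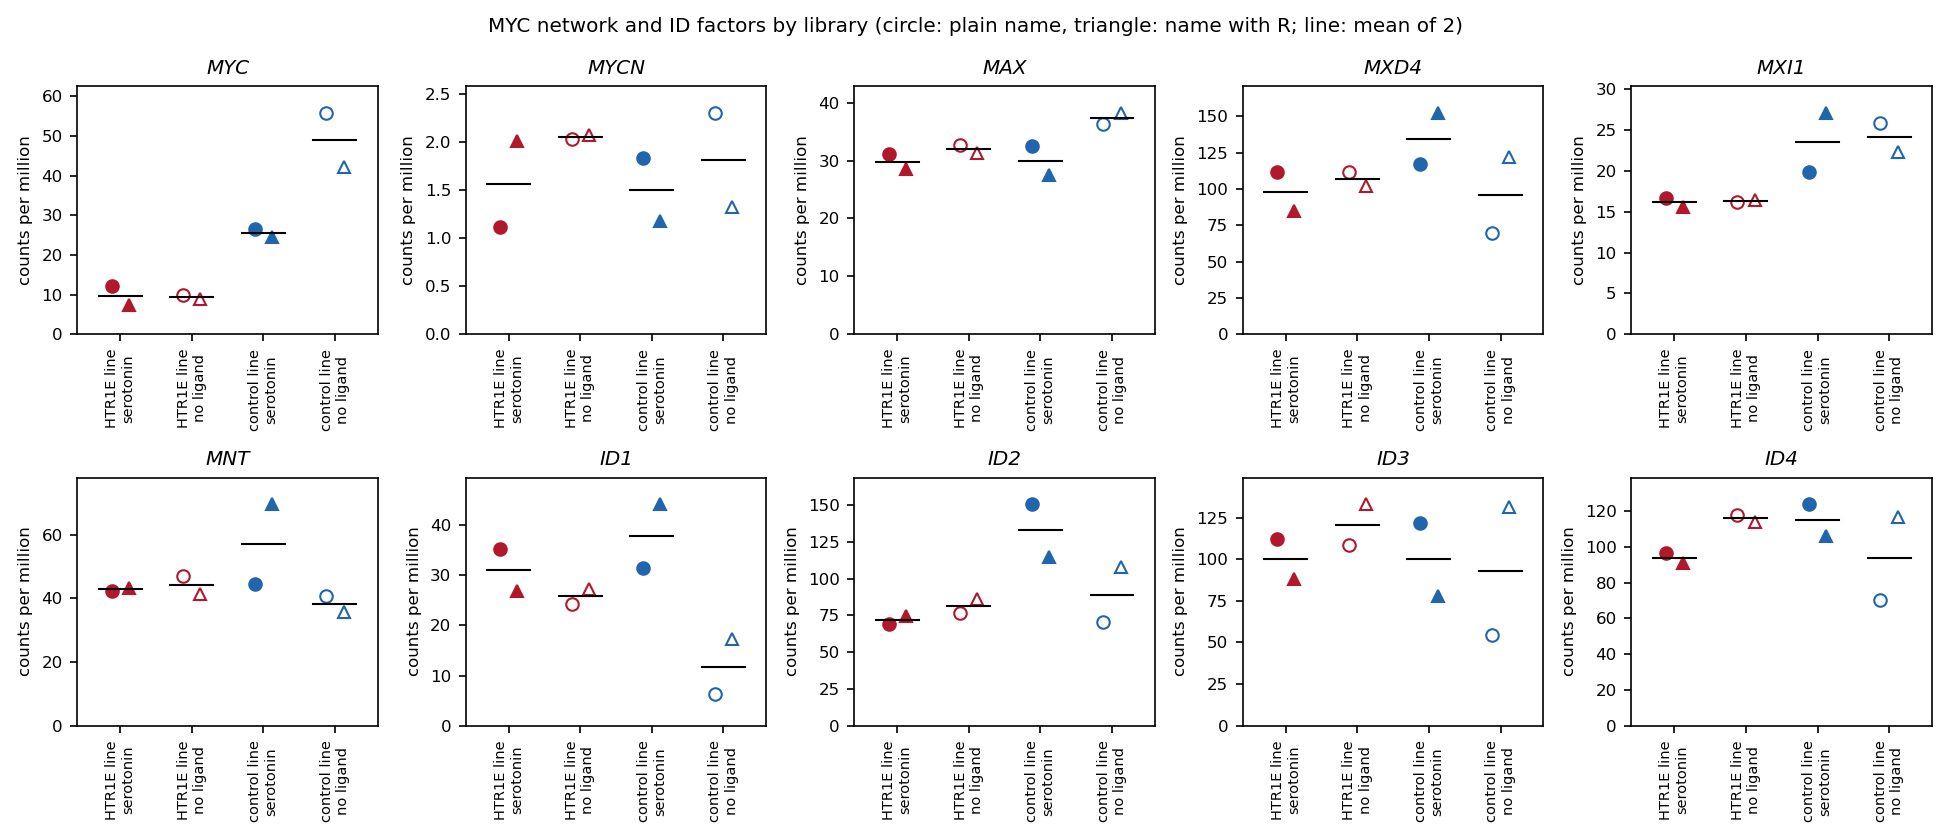
CPM (vertical axes, from 0) of the 10 genes in each of the 8 libraries, with the HTR1E line in red, control cells in blue, serotonin filled and no ligand open. Circles and triangles are the 2 libraries of a group and bars their mean. MYC lies between 7.35 and 12.1 CPM in all 4 HTR1E libraries and between 24.5 and 55.9 CPM in all 4 control libraries.

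The first comparison set the HTR1E line against control cells with no ligand. In bulk RNA, a lower level per cell and a smaller share of expressing cells cannot be told apart. MYC was the single member that passed the test, and it was lower in the HTR1E line. MYC (chr8:127735434-127741434, plus strand, hg38 with GENCODE 28) had 9.93 and 8.96 CPM in HTR1E cells, against 55.9 and 42.2 CPM in control cells, from 93 and 91 counts against 97 and 383. The groups did not overlap, and the lowest control library was over 4 times the highest HTR1E library. With 2 libraries per group, groups can separate without a difference. The share of all genes that did so was not counted in any comparison. Means were 9.44 ± 0.685 CPM in HTR1E cells and 49.0 ± 9.69 CPM in control cells (SD, n = 2 each). MYC fell by 2.36 on the log2 scale in the HTR1E line (SE 0.309, 95% confidence interval -3.03 to -1.68, edgeR quasi-likelihood test, Benjamini-Hochberg adjusted p = 0.00356). Over all 17144 genes tested, 2.42% passed, 260 higher and 155 lower, so 1 of 10 members is a count too small to set apart from that background. The medians were 0.18 over the members and 0.03 over all genes on the log2 scale. Without the control library of 54.4% mitochondrial counts, the MYC difference was -2.19, and without both libraries that stood apart it was also -2.19. The call was lost when either HTR1E library with no ligand was left out (adjusted p = 0.065 without the plain-named one and 0.0949 without the R-named one, edgeR), and in a fit of the 4 compared libraries alone (adjusted p = 0.0515, edgeR).

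ID1 (chr20:31605283-31606515, plus strand, hg38 with GENCODE 28) had 24.3 and 27.4 CPM in HTR1E cells with no ligand, against 6.33 and 17.3 CPM in control cells. The groups did not overlap, as for MAX, MXI1 and MNT. The ID1 control value of 6.33 came from 11 counts in the library with the high mitochondrial share. The difference of 0.98 (SE 0.379, 95% confidence interval 0.15 to 1.81) did not pass the edgeR test over all genes (unadjusted p = 0.0247, adjusted p = 0.195). The value turned on which control library was kept. Without the library of 11 counts ID1 was at 0.55 (adjusted p = 0.411, edgeR) and ID3 at -0.16 (adjusted p = 0.852, edgeR), and both values were the same without both libraries that stood apart. Without the R-named control library, which rests the comparison on the 11 counts, ID1 was at 2.03 and ID3 at 1.14. MXI1, which pairs with MAX as a repressor, had 16.2 and 16.4 CPM in HTR1E cells and 25.9 and 22.3 CPM in control cells. Its difference of -0.55 had an interval of -1.14 to 0.05 (adjusted p = 0.298, edgeR). The other 7 members had differences between -0.23 and 0.35 with intervals that included 0. The widest was that of MYCN, -1.08 to 1.76, at 4 to 21 counts per library.

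After serotonin, MYC was again the single member called, and again lower in the HTR1E line. MYC had 12.1 and 7.35 CPM in HTR1E cells, against 26.6 and 24.5 CPM in control cells. There was no overlap between the groups, and means were 9.75 ± 3.39 CPM in HTR1E cells and 25.5 ± 1.53 CPM in control cells (SD, n = 2 each). MYC fell by 1.38 on the log2 scale (SE 0.304, 95% confidence interval -2.04 to -0.71, adjusted p = 0.0286, edgeR). Of all genes tested, 5.25% passed, 400 higher and 500 lower; the medians were -0.35 over the members and 0.02 over all genes. The call was the less stable of the pair. It was lost without any 1 of 6 libraries, namely all 4 HTR1E libraries and both serotonin-treated control libraries, with adjusted p between 0.0602 and 0.299 (edgeR), while the difference stayed between -1.80 and -1.07. Without both libraries that stood apart it was -1.44.

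ID2 (chr2:8678845-8684453, plus strand) had 69.0 and 74.3 CPM in HTR1E cells after serotonin, against 151 and 115 CPM in control cells. These groups did not overlap, and neither did those of MXD4, MXI1, MNT and ID4. The ID2 difference of -0.89 (95% confidence interval -1.55 to -0.23) did not pass the edgeR test over all genes (unadjusted p = 0.0123, adjusted p = 0.102). It passed with DESeq2 (adjusted p = 0.0456), which called 1521 genes over the whole table, against 900 with edgeR. Without both libraries that stood apart ID2 was at -1.09. It also passed without either control library with no ligand, which is not among the libraries compared (adjusted p = 0.015 without the plain-named one and 0.018 without the R-named one, edgeR). With no ligand, ID2 had 76.7 and 86.2 CPM in HTR1E cells and 70.3 and 108 CPM in control cells, and the groups overlapped. MXI1 differed by -0.54 after serotonin (interval -1.12 to 0.05, adjusted p = 0.239, edgeR), near its value with no ligand. The remaining 7 members had differences between -0.45 and 0.01, with intervals that included 0.

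**Figure D2:**
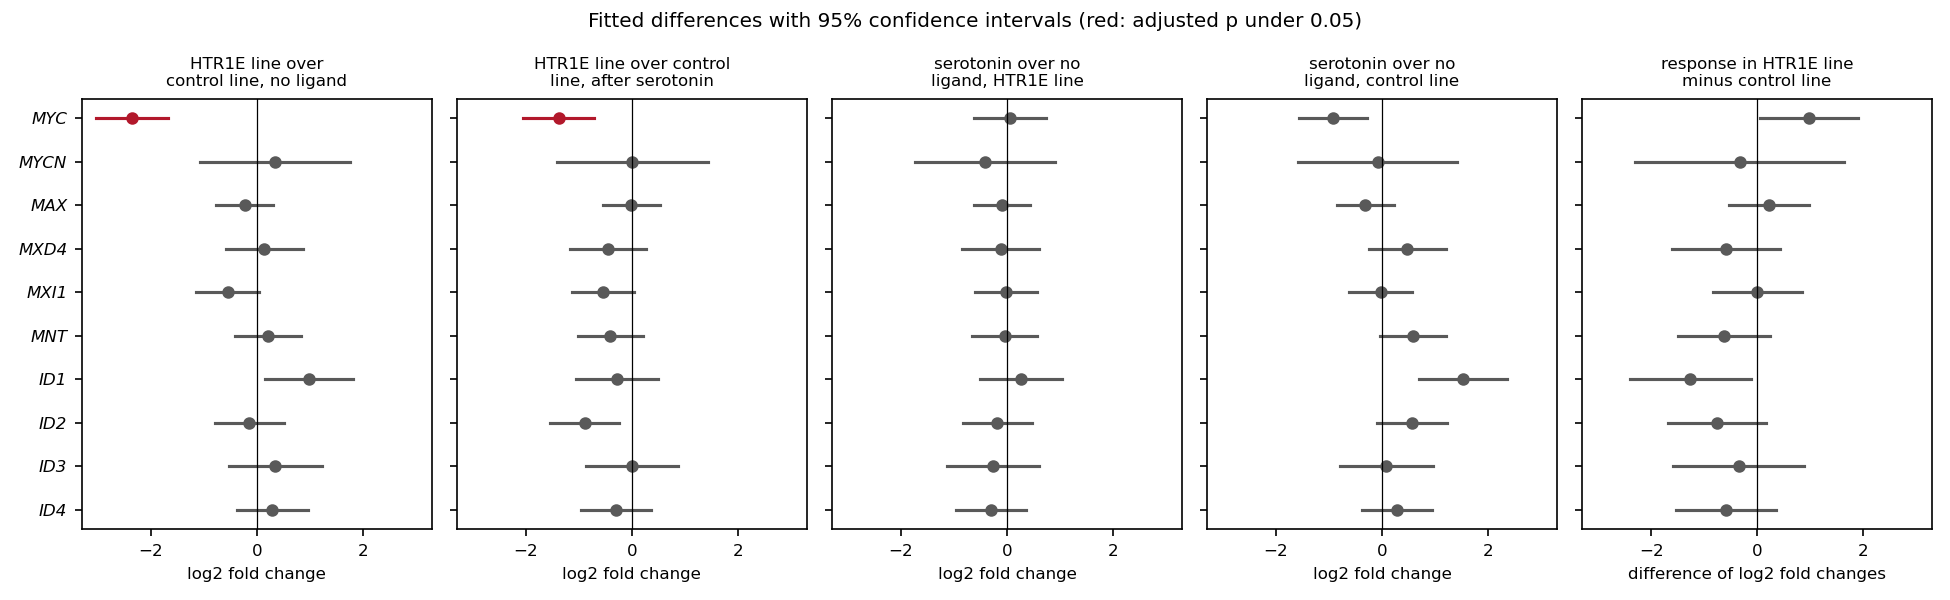
Fitted log2 fold change (horizontal axes) of each member in 5 comparisons, with bars for 95% confidence intervals and red for adjusted p under 0.05. Red appears for MYC alone, at -2.36 with no ligand and -1.38 after serotonin.

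Serotonin was then compared with no ligand within each line. In the HTR1E line no member passed the edgeR test, none had an unadjusted p under 0.05, and 0% of all genes passed. The count over all genes was 0 with DESeq2 as well, and 62 genes (0.362%) had an unadjusted p under 0.05 with edgeR. MYC had 12.1 and 7.35 CPM with serotonin and 9.93 and 8.96 CPM with no ligand. The serotonin libraries lay on either side of those with no ligand. The MYC difference was 0.06, with an interval of -0.62 to 0.73, and the interval of ID1, -0.52 to 1.05, was of similar width. ID4 had 96.5 and 91.1 CPM with serotonin, against 118 and 114 CPM with no ligand, and ID2 had 69.0 and 74.3 CPM with serotonin, against 76.7 and 86.2 CPM with no ligand. Neither pair of groups overlapped, yet the differences of -0.30 for ID4 (interval -0.96 to 0.35) and -0.18 for ID2 (interval -0.84 to 0.47) did not pass. Each interval rests on a spread fitted over all 4 groups, control libraries included, and a change inside it is not excluded.

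In control cells no member passed, and 0.0117% of all genes did, 2 of 17144, although 26.5% had an unadjusted p under 0.05 and DESeq2 called 1599 genes. MYC had 26.6 and 24.5 CPM with serotonin, against 55.9 and 42.2 CPM with no ligand. Libraries of the 2 groups did not overlap, and the difference was -0.92 (SE 0.294, 95% confidence interval -1.57 to -0.28, unadjusted p = 0.00926, adjusted p = 0.0985, edgeR). Without both libraries that stood apart it was -0.66 (adjusted p = 0.386, edgeR). ID1 had 31.4 and 44.2 CPM with serotonin, against 6.33 and 17.3 CPM with no ligand. Again the groups did not overlap, and the difference was 1.53 (SE 0.382, 95% confidence interval 0.69 to 2.36, unadjusted p = 0.00199, adjusted p = 0.0712, edgeR). The groups of MAX, MNT and ID2 did not overlap either.

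The ID1 value turned on single libraries. It was 1.14 (adjusted p = 0.0726, edgeR) without the control library of 54.4% mitochondrial counts, and 0.86 (adjusted p = 0.234, edgeR) without both that stood apart. It was 2.57 without the R-named library with no ligand, where MYC was at -1.13, MXD4 at 0.95 and ID2 at 0.92. In that setting the library with 11 ID1 counts stood alone for its group. ID1 passed with DESeq2 (adjusted p = 0.00804), as did 1599 genes in all, and with edgeR on all genes with at least 1 count (adjusted p = 0.00137). MNT, a repressor partner of MAX, had 44.6 and 69.7 CPM with serotonin and 40.9 and 35.7 CPM with no ligand, a difference of 0.59 (interval -0.04 to 1.21, adjusted p = 0.215, edgeR) and of 0.32 (adjusted p = 0.656, edgeR) without both libraries that stood apart. Its higher serotonin value came from the library of 36.3% mitochondrial counts, and the part of that share in these differences was not tested.

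The difference between the serotonin responses of the lines was tested directly, as the response in HTR1E cells minus that in control cells. No member passed with edgeR or DESeq2, and 0% of all genes passed with edgeR, against 77 genes with DESeq2; 2564 genes had an unadjusted p under 0.05 with edgeR. MYC differed by 0.98 (95% confidence interval 0.05 to 1.91, unadjusted p = 0.0413, adjusted p = 0.325, edgeR), and by 0.75 (adjusted p = 0.646, edgeR) without both libraries that stood apart. ID1 differed by -1.26 (95% confidence interval -2.40 to -0.12, unadjusted p = 0.0331, adjusted p = 0.318, edgeR). The ID1 value was -0.85 (adjusted p = 0.381, edgeR) without the control library of 54.4% mitochondrial counts and -0.57 (adjusted p = 0.693, edgeR) without both that stood apart. It was -2.30 without the R-named control library with no ligand. A response confined to control cells was thus not shown for either gene. For serotonin against no ligand averaged over both lines, which needs no placing of the lines, 0.00583% of genes passed, 1 gene, and no member did. ID1 had the lowest p among the members there, at 0.90 (95% confidence interval 0.32 to 1.47, unadjusted p = 0.00535, adjusted p = 0.424, edgeR). It was 0.71 without the control library of 54.4% mitochondrial counts and 0.58 without both that stood apart. Without the R-named control library with no ligand it was 1.42. MYC was at -0.43 (interval -0.90 to 0.03, adjusted p = 0.463, edgeR), and at -0.28 (adjusted p = 0.684, edgeR) without both libraries that stood apart.

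**Figure D3:**
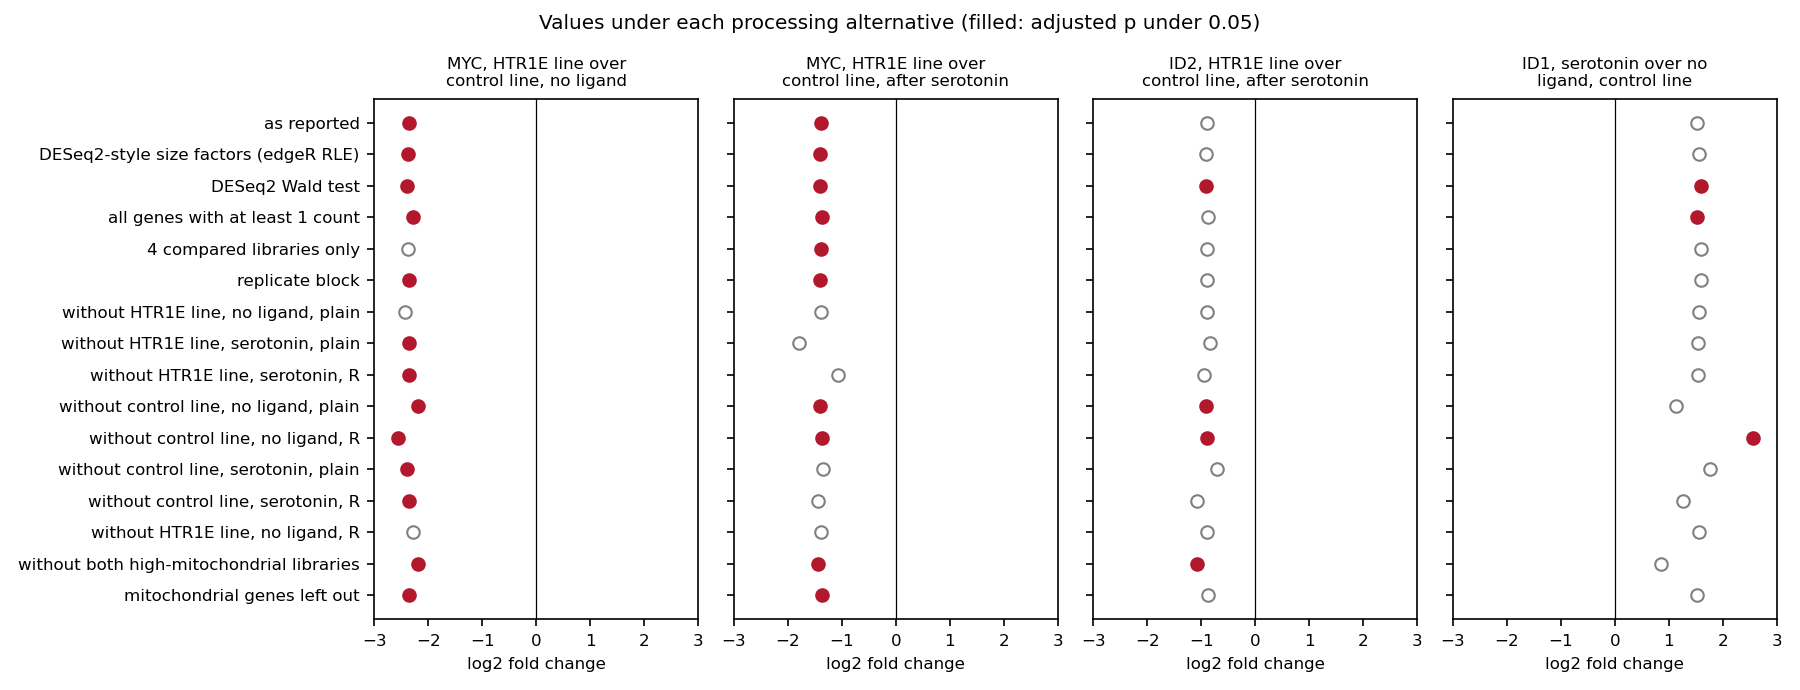
Log2 fold change (horizontal axes) under the reported fit and each of 15 alternatives (rows) for MYC between the lines, ID2 between the lines after serotonin, and ID1 with serotonin in control cells, filled where adjusted p is under 0.05. MYC stays between -2.56 and -2.19 with no ligand, whereas ID1 in control cells runs between 0.86 and 2.57.

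MYC was the member called, so the 3 genes with the most similar profile over the 8 libraries were taken, by the root mean square difference of centred log2 CPM. They were PREX2 (0.208), which encodes a RAC exchange factor, LGI2 (0.249) and PPARGC1B (0.270), a transcriptional coactivator. With no ligand, PREX2 differed between HTR1E and control cells by -2.07, LGI2 by -2.20 and PPARGC1B by -2.04. These values follow from the way the genes were picked and are a description.

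Other genes of the pathway were taken from lists. Among 7 further genes of the MYC-MAX-MLX network, 0 rose and 1 fell in the HTR1E line with no ligand, and none passed after serotonin. Of all genes tested, 2.42% passed with no ligand and 5.25% after serotonin. The gene that fell was MXD1, a repressor partner of MAX, with 12.8 and 12.3 CPM in HTR1E cells against 32.8 and 25.8 CPM in control cells. The groups did not overlap, and MXD1 differed by -1.20 (adjusted p = 0.0485, edgeR), a call that held in 6 of 15 alternatives. It was lost without any 1 of 7 libraries, all but the R-named control library with no ligand. The list medians were -0.37 with no ligand and -0.70 after serotonin, and -0.18 and -0.56 in the same order without both libraries that stood apart.

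Among 15 genes known as activated by MYC, 0 rose and 1 fell in the HTR1E line with no ligand. After serotonin 0 rose and 2 fell. Over all genes tested the shares called were 2.42% and 5.25% in the same order. The list medians were -0.33 with no ligand and -0.49 after serotonin, beside 0.03 and 0.02 over all genes in the same order. Without both libraries that stood apart, the medians were -0.55 with no ligand and -0.40 after serotonin. CCND2, which encodes cyclin D2, had 34.2 and 31.7 CPM in HTR1E cells with no ligand, against 165 and 91.8 CPM in control cells. CCND2 differed by -1.95 (adjusted p = 0.0123, edgeR), and like MYC it was lost without either HTR1E library with no ligand (adjusted p = 0.164 and 0.22, edgeR). Its difference after serotonin, -1.21, did not pass (adjusted p = 0.0537, edgeR).

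FBL, the fibrillarin methyltransferase of ribosomal RNA, had 162 and 136 CPM in HTR1E cells after serotonin, against 405 and 486 CPM in control cells. FBL differed by -1.58 (adjusted p = 0.0393, edgeR). TERT, the catalytic subunit of telomerase, had 3.84 and 1.67 CPM in HTR1E cells, against 8.43 and 16.9 CPM in control cells, and differed by -2.15 (adjusted p = 0.046, edgeR). The highest TERT value came from the library of 36.3% mitochondrial counts, and without it the difference was -1.58 (adjusted p = 0.398, edgeR). Both calls were lost without any 1 of 5 libraries, namely all 4 HTR1E libraries and that R-named serotonin control library. Without both libraries that stood apart, FBL was at -1.46 and TERT at -1.58.

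**Figure D4:**
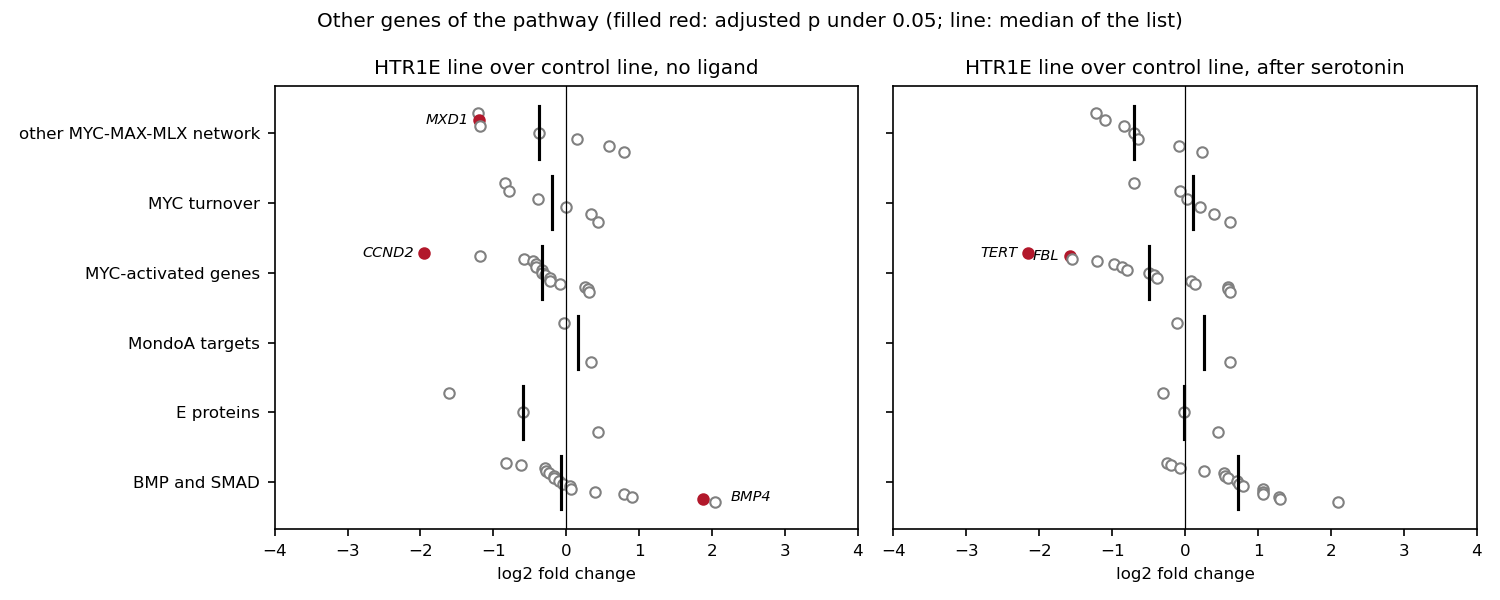
Log2 fold change of the HTR1E line over control cells (horizontal axes) with no ligand at left and after serotonin at right, 1 circle per gene of each list, red where adjusted p is under 0.05 and a bar at the list's median. MYC-activated genes have medians of -0.33 and -0.49, and BMP and SMAD genes of -0.07 and 0.72.

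Among 16 BMP and SMAD genes, which act upstream of ID transcription, 1 rose and 0 fell in the HTR1E line with no ligand, beside 2.42% of all genes called. BMP4, a secreted ligand, had 9.08 and 8.67 CPM in HTR1E cells, against 2.88 and 2.20 CPM in control cells. BMP4 was higher by 1.88 (adjusted p = 0.0448, edgeR), and the call held in 6 of 15 alternatives. It was lost without any 1 of 7 libraries, all but the plain-named control library with no ligand. The list also holds inhibitors of BMP signalling, and none of these passed. With no ligand they were at 2.04 (NOG), 0.90 (BAMBI), 0.79 (GREM1), -0.16 (SMAD7) and -0.28 (SMAD6). After serotonin no gene of the list passed, and 7 of 16 had an unadjusted p under 0.05, as had 24.3% of all genes. The median was 0.72, with BMP4 at 1.29 (adjusted p = 0.0776, edgeR). In control cells the list's median with serotonin over no ligand was -0.54, with no gene called and 6 of 16 at an unadjusted p under 0.05, beside 26.5% of all genes. The serotonin library of 36.3% mitochondrial counts, which enters both medians, had the lowest CPM of all 8 libraries for 11 of the 16 genes. Without both libraries that stood apart the medians were 0.35 between the lines after serotonin and -0.28 for serotonin in control cells.

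No gene passed among the 3 E proteins, the partners held by ID factors, in any comparison. TCF4 was nearest, at -1.61 with no ligand (adjusted p = 0.0969, edgeR) and -0.01 after serotonin. With no ligand it had 27.8 and 29.6 CPM in HTR1E cells, against 133 and 46.6 CPM in control cells. The 133 CPM came from the control library of 54.4% mitochondrial counts. The E protein median with no ligand was -0.60, and 0.12 without both libraries that stood apart. None passed among 6 genes of MYC protein turnover or 2 MondoA targets, and FBXW7, a ubiquitin ligase subunit that marks MYC for breakdown, was at -0.79 with no ligand and -0.70 after serotonin (adjusted p = 0.205 and 0.187, edgeR). No list gene passed in any serotonin comparison or in the difference between the responses. Of the marker lists, COL1A1 was higher by 1.30 in HTR1E cells with no ligand (adjusted p = 0.0487, edgeR), at 28.3 and 31.6 CPM against 12.1 and 12.2 CPM in control cells. That call was lost without any 1 of the 4 HTR1E libraries or without the plain-named control library with no ligand (adjusted p up to 0.394, edgeR). PAX2, a kidney transcription factor of the HEK293 list, was at -2.29 after serotonin (adjusted p = 0.0422, edgeR), with 2.73 and 2.84 CPM in HTR1E cells against 5.98 and 21.6 CPM in control cells. It was lost without any 1 of the 4 HTR1E libraries, and it was -1.10 (adjusted p = 0.44, edgeR) without the R-named serotonin control library that holds the higher value. The part of these markers in the member results was not tested.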

How the data were processed

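Raw counts of reads per gene were deposited by the authors as 1 table of 8 libraries, counted by featureCounts on GENCODE release 28 with reverse strandedness, per the file headers. The submitters' processing notes also name cutadapt 3.4, STAR 2.7.8a, SAMtools 1.12, Subread 2.0.1 and the build hg38. The table holds 58440 identifiers, and symbols were taken from a gene name table for 57754. Treatment was read from column names and the cell line from the HTR1E counts and a shared letter; no column is tied to a single sample title.

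Genes passing edgeR's expression filter (17144, all 10 members among them) were fitted in 1 model of 4 groups with TMM scaling, and edgeR's quasi-likelihood test (edgeR 4.0.16, R 4.3.3) was adjusted by Benjamini-Hochberg over all of them; a gene was called at an adjusted p under 0.05. CPM use TMM-scaled library sizes. MYCN overlaps an antisense gene, which strand-aware counting separates. Alternatives were DESeq2 1.42.0, other scaling and filters, the 4 compared libraries, a replicate block and each library left out.

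Members and lists were chosen with earlier results of these data known. Named genes were all members, up to 3 called genes per list and comparison, and the 3 genes most like a called member.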

Additional observations from a re-analysis of the deposited data

How the results depend on the processing

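Over 880 recomputed member values, 9 calls were lost, 15 were gained and none reversed. A further 66 values changed sign but passed neither as reported nor in the alternative concerned. Member counts with no ligand between the lines were 1 as reported and 0 with the 4 compared libraries alone; after serotonin 1 as reported, 2 with DESeq2 and 2 without the 2 libraries of highest mitochondrial share, an alternative chosen after seeing the data. Serotonin in control cells called 0 members as reported, 1 with DESeq2 and 1 with all genes of at least 1 count, and the mean of both lines 0 as reported and 1 with all genes of at least 1 count. Leaving out 1 library gave 0 to 3 members with no ligand, 0 to 2 after serotonin, 0 to 4 for serotonin in control cells, 0 to 1 for the difference of responses and 0 to 1 for the mean of both lines. In the HTR1E line no alternative called a member. Any fit that leaves 1 library in a group assumes that this library varies like the other groups. The fit without both libraries that stood apart does so for both control groups.

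Libraries of the same name ending did not deviate together (correlations -0.464 to 0.146). The control libraries that stood apart carry opposite marks, so this cannot decide whether the marks pair libraries. A fit with the replicate block kept MYC at -2.36 (adjusted p = 0.00401) and -1.41 (adjusted p = 0.0384, edgeR), with member counts of 1, 1, 0, 0, 0 and 0 as without it, but lost the list genes MXD1 (adjusted p = 0.0965), BMP4 (0.0907), COL1A1 (0.0759), FBL (0.0684), TERT (0.0827) and PAX2 (0.0573), kept CCND2 (0.0178, all edgeR), and called 268 genes instead of 415 with no ligand and 480 instead of 900 after serotonin.

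Calls over all genes ran, over all alternatives, from 38 (the 4 compared libraries alone; 46 at the fewest with 1 library left out) to 3607 with no ligand, 75 to 3285 after serotonin, 0 to 4818 for serotonin in control cells, 0 to 3405 for the difference of responses and 0 to 1498 for the mean of both lines, beside 415, 900, 2, 0 and 1 as reported; the cause was not tested. MYCN had 4 to 21 counts per library, and its intervals were the widest among the members.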
